A study of Homo sapiens with 6 samples.

Results

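In SW480, an established human cell line from a colon adenocarcinoma, the transcripts of the proteasome genes were compared between control cultures and cultures labelled as overexpressing the FLAG-tagged microprotein MUCP1. Members were the genes whose symbol is PSM followed by a letter from A to G and a digit, which held for 50 of the 20289 genes of the deposited table. Of these, 48 encode subunits, activators, an inhibitor or assembly chaperones of the proteasome. The other two, PSMC3IP and PSME3IP1, match by their letters alone and are given apart. In the deposited annotation, 41 of the 50 carried the KEGG term for the proteasome and 44 a proteasome term of the GO cell components.

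There were 3 libraries of each group. The control group, LV-NC, has the genotype label WT and the treatment label None / LV-NC, and the other group is labelled MUCP1-FLAG with MUCP1-Flag overexpression as its genotype. Both groups share the cell line, the L-15 medium with serum and the mRNA library kit, and the libraries within each group are labelled as biological replicates, with no day, passage, clone or vector dose named. p-values therefore measure the spread between these libraries, which may be technical in part. Whether MUCP1 itself was raised was not checked here, since its symbol does not occur among the measured genes.

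The proteasome is the protease that degrades most short-lived and damaged proteins of the cytoplasm and nucleus, usually after they are tagged with ubiquitin. Its barrel-shaped core has outer rings of alpha subunits, which gate the entrance, and inner rings of beta subunits, some of which cut peptide bonds. A cap binds ubiquitin chains, removes them, and unfolds the substrate with a ring of ATPases. Interferon induces a second set of catalytic beta subunits, the immunoproteasome, whose products feed antigen presentation on HLA class I molecules. Colorectal cancer cells, like other cells with high protein turnover, depend on the proteasome to survive.

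The libraries held 17333329 to 23282604 counts. Within a gene, levels are given as CPM, which are counts scaled to library size with the TMM factors of edgeR. Between genes they are given as the authors' deposited FPKM, which are scaled for gene length too. Of 8 colon epithelial markers, 7 passed the filter on low counts and LGALS4 had 0 counts in every library. Their summed level, 3936 to 4309 FPKM in LV-NC against 4183 to 4312 FPKM in MUCP1-FLAG, was carried mostly by KRT8 (mean 1935 FPKM in LV-NC) and KRT18 (1623 FPKM), while CDH1 (7.08 FPKM), VIL1 (4.88 FPKM) and CDX2 (4.30 FPKM) were low. The markers did not all stay level, since CDH1, EPCAM and VIL1 were lower in MUCP1-FLAG and KRT19 was higher in the edgeR test described below, and the part of this shift in the proteasome results was not tested. Of 7 leukocyte markers, 3 passed the filter and PTPRC had 0 counts throughout. Their summed level was 17.02 to 22.6 FPKM in LV-NC and 13.7 to 16.1 FPKM in MUCP1-FLAG. Fibroblast markers summed to 0.12 to 0.46 FPKM and endothelial markers to 0.27 to 0.47 FPKM. In bulk RNA, fewer cells with a transcript and less of it per cell cannot be told apart.

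PSM-named transcripts of the standard proteasome, that is, the core with its constitutive catalytic subunits plus the cap, were slightly more abundant in MUCP1-FLAG. Leaving aside the testis subunit PSMA8, all 31 of these genes passed the filter and all 31 had a positive log2 fold change, from 0.05 for PSMD12 to 0.25 for PSMC3, with a median of 0.13. In the edgeR quasi-likelihood test, 12 of the 31 (38.7%) were higher at an adjusted p under 0.05, where adjustment covered all 12920 genes tested. At an unadjusted p under 0.05, 18 were higher, and 10 passed in DESeq2. The number lower was 0 by each of these counts. The cap subunits ADRM1 and SEM1 have no PSM name and are not among the 31. Neither passed the threshold in edgeR (log2 fold change 0.10, adjusted p = 0.236, and 0.17, adjusted p = 0.108). Over all tested genes 8.35% were higher, 7.71% were lower and 49.0% had a positive fold change, with a median log2 fold change of -0.004. Most proteasome genes are abundant, and 41 members had a mean of at least 50 CPM. Among the 4499 tested genes at that level, 13.0% were higher, 7.85% were lower and 55.2% were positive, with a median of 0.016.

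The changes were small. The 12 genes past the threshold were 10.5% to 18.8% higher, with standard errors of 0.04 to 0.06 on the log2 scale. The 19 core and cap genes that did not pass were 3.43% to 11.7% higher, and the threshold itself favours the larger changes. In 20 of the 31 genes (64.5%) every MUCP1-FLAG library lay above every LV-NC library, an arrangement found in 16.6% of all tested genes, and in the other 11 the groups overlapped. The sum of the matched genes took 0.643% to 0.663% of all counts in LV-NC (mean 0.655% ± 0.0108, SD, n = 3) and 0.695% to 0.711% in MUCP1-FLAG (0.700% ± 0.00921, SD, n = 3), without overlap.

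Among the 15 other subunits, activators and chaperones that passed the filter, 0 were past the threshold in either direction in edgeR and 0 in DESeq2, and 3 had an unadjusted p under 0.05 in edgeR (PSMB8, PSMD9 and PSMD10). Their median log2 fold change was 0.05, 11 of the 15 were positive, 3 had all MUCP1-FLAG libraries on top and 1, PSMB8, had them all below, where 16.4% of all tested genes did. The difference between these genes and the core and cap was not tested. PSMA8 and the thymus subunit PSMB11 had 0 counts in all 6 libraries, which allows up to 3 counts or 0.129 to 0.173 CPM in a library, for counting error only.

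**Figure D1:**
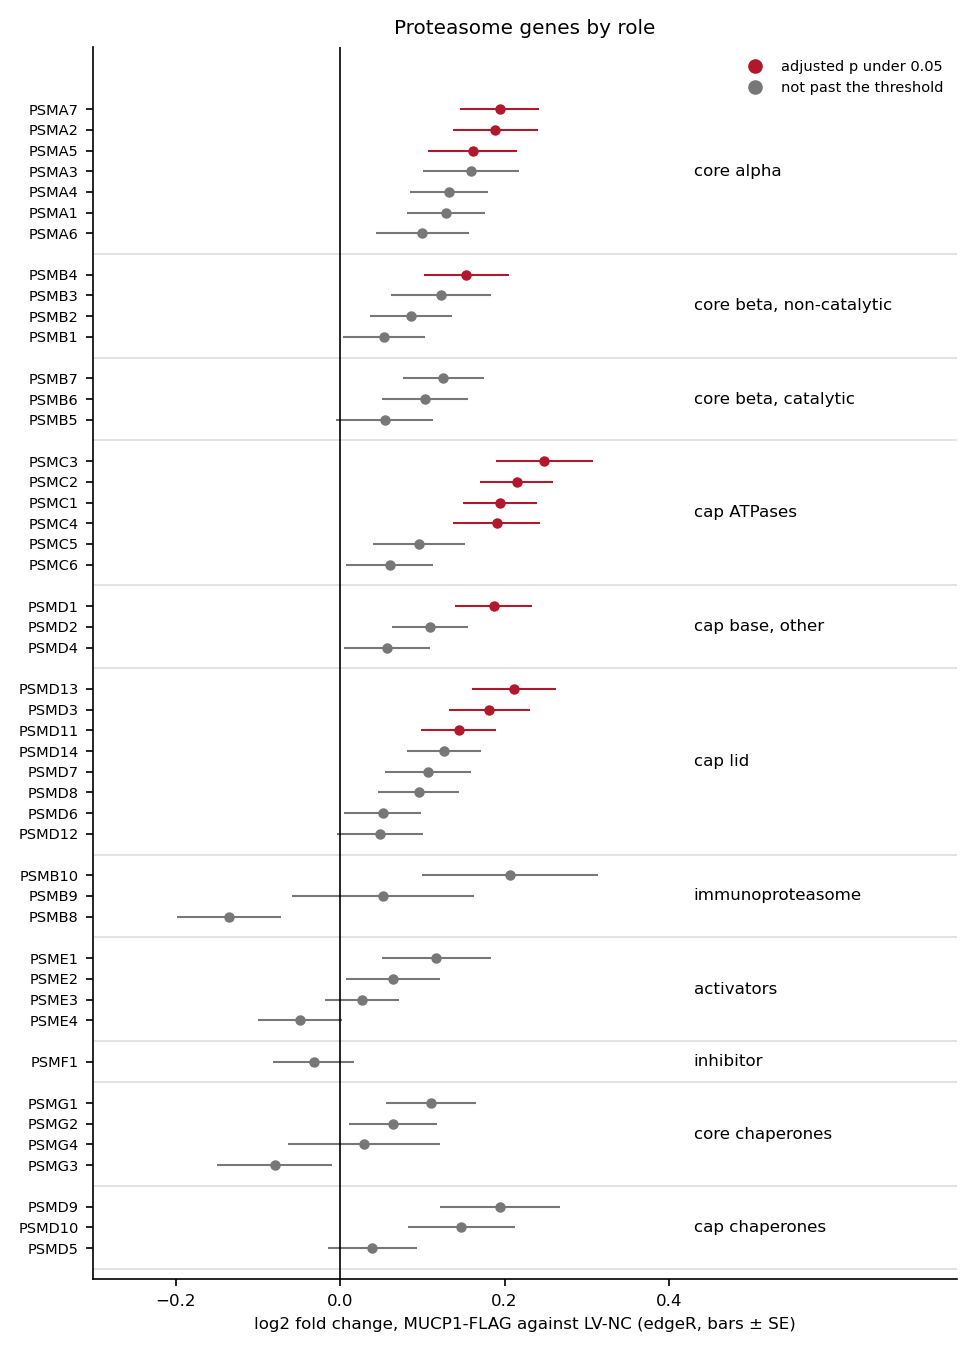
log2 fold change of MUCP1-FLAG against LV-NC for each tested proteasome gene (points, edgeR) with its standard error (bars), grouped by role, where red marks an adjusted p under 0.05. All 31 PSM-named core and cap subunits lie to the right of 0, and the 12 red points are alpha, non-catalytic beta and cap subunits.

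Promoter motifs were counted over the members and are shown for 6 of them, chosen because the window holds a match. The gene starts and sequences are those of RefSeq on GRCh38.p14, with the first listed start of each gene. Windows ran from 250 bases before to 50 after the start. Of the 48 genes, 42 matched, among them 26 of the 31 core and cap genes and 11 of the 12 past the threshold. Motifs were searched on both strands and can overlap each other. NFE2L1, the factor known to raise proteasome transcription when the proteasome is inhibited, acts through antioxidant response elements. The core of that element, TGACNNNGC, occurred in 13.6% of all 27305 promoters, in 5 of the 26 core and cap promoters (19.2%) and in 3 of the 11 promoters of genes past the threshold (27.3%). Over all 42 matched genes it occurred in 13 (31.0%), and outside the core and cap in 8 of 16. Those 16 include PSMA8 and PSMB11, which had 0 counts and no expression test. Whether this motif has a part in the expression differences was not tested. The CCAAT box, bound by the factor NF-Y, was found in 35.7% of all promoters, in 14 of 26 (53.8%), in 5 of 11 and in 19 of 42 (45.2%). An interferon-response-like motif, made of 2 GAAA repeats with 2 bases between them, was found in 3.65% of all promoters, in 2 of 26 (7.69%) and in 6 of the 42 matched genes (14.3%). PSMB8 and PSMB9 had 0 matches to it in these windows, and PSMB8 had 0 to any of the 5 motifs. Other starts of these genes, and bases outside the windows, were not searched. The STAT site TTCNNNGAA was in 7.88% of all promoters, in 3 of 26 and in 5 of 42, and the E-box CACGTG in 7.43%, in 1 of 26 and in 3 of 42. A match describes letters in a window and no binding was measured.

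The printed windows are the 120 bases before the start, 5′ to 3′ on the gene's strand, with motif matches in capitals. PSMC2, the ATPase gene with the smallest adjusted p, has a CCAAT box at chr7:103347523-103347642 (plus strand). The lid gene PSMD3, also past the threshold, carries an antioxidant response core and a STAT site at chr17:39980687-39980806 (plus strand), and the ATPase gene PSMC4 a STAT site at chr19:39971045-39971164 (plus strand). The core gene PSMB4, past the threshold as well, has an interferon-response-like match at chr1:151399453-151399572 (plus strand). The same motif stands close to the start of PSMB10, a catalytic subunit of the immunoproteasome, at chr16:67936851-67936970 (minus strand), and of PSME2, an interferon-induced activator, at chr14:24146611-24146730 (minus strand), neither of which passed the threshold.
PSMC2: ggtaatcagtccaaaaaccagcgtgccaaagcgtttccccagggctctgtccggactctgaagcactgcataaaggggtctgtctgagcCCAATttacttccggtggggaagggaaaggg
PSMD3: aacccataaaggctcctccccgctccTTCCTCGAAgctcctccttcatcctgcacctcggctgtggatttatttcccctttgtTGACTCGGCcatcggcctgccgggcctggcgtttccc
PSMC4: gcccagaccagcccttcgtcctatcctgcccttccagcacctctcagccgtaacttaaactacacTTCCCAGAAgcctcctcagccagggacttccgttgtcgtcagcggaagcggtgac
PSMB4: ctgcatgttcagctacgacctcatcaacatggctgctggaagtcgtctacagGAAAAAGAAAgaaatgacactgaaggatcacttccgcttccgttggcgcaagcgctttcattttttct
PSMB10: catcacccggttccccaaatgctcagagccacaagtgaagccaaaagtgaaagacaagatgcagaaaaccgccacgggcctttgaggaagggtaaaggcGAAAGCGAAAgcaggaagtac
PSME2: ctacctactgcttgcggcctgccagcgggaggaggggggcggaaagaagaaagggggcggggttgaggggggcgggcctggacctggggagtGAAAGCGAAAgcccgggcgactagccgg

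The alpha ring, whose subunits form the gate of the core, rose in 3 of its 7 tested genes, and the 7 had a median log2 fold change of 0.16 (range 0.10 to 0.19). PSMA7 read 215, 218 and 201 CPM in LV-NC replicates 1 to 3 and 234, 250 and 241 CPM in MUCP1-FLAG. All 3 overexpressing libraries were above the controls, and the log2 fold change was 0.19 ± 0.05 (14.4%, adjusted p = 0.00707 in edgeR). PSMA2 went from 110, 112 and 115 CPM to 129, 134 and 122 CPM, again without overlap (0.19 ± 0.05, 14.0%, adjusted p = 0.0151). For PSMA5, the alpha subunit with the lowest level per length, the values were 85.5, 92.5 and 89.9 CPM against 98.1, 104 and 97.8 CPM (0.16 ± 0.05, 11.8%, adjusted p = 0.0454). PSMA1, PSMA3 and PSMA4 also had non-overlapping groups but adjusted p-values of 0.0705, 0.0666 and 0.0638, and PSMA6 had overlapping groups (0.10, adjusted p = 0.252). The call for PSMA7 did not hold without MUCP1-FLAG replicate 2 (adjusted p = 0.0562). That for PSMA2 did not hold once LV-NC replicate 2 (0.0714) was left out, or MUCP1-FLAG replicate 1 (0.0617) or 2 (0.112), and PSMA5 passed in 1 of the 6 fits that left out a library.

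In the beta rings, 1 of the 4 non-catalytic subunits and 0 of the 3 constitutive catalytic subunits passed the threshold in edgeR. At an unadjusted p under 0.05 there was 1 catalytic subunit, PSMB7, and DESeq2 called 0 of the 3. PSMB4, a structural beta subunit, was measured at 196, 194 and 173 CPM in LV-NC and at 206, 215 and 205 CPM in MUCP1-FLAG (0.15 ± 0.05, 11.2%, adjusted p = 0.0471), and passed in 1 of the 6 fits that left out a library. The other three, PSMB1, PSMB2 and PSMB3, had log2 fold changes of 0.05 to 0.12. The catalytic subunits had positive values that the test did not part from 0. PSMB7, with trypsin-like activity, stood at 134, 141 and 138 CPM against 146, 157 and 148 CPM, without overlap (0.13 ± 0.05, adjusted p = 0.0900). PSMB6, with caspase-like activity, gave 117, 112 and 106 CPM against 118, 124 and 119 CPM, also just apart (0.10 ± 0.05, adjusted p = 0.199). PSMB5, with chymotrypsin-like activity and the main target of bortezomib, gave 101, 96.0 and 89.4 CPM against 93.0, 104 and 99.9 CPM, with overlap (0.05 ± 0.06, adjusted p = 0.590).

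Of the role groups, the ATPases of the cap had the largest share past the threshold, 4 of 6, and the highest median log2 fold change, 0.19 (range 0.06 to 0.25). PSMC2 had the smallest adjusted p of all members. Its levels were 254, 267 and 253 CPM in LV-NC and 295, 304 and 298 CPM in MUCP1-FLAG, which did not overlap (0.21 ± 0.04, 16.1%, adjusted p = 0.00181). PSMC1 went from 222, 230.5 and 223 CPM to 256, 266 and 250.3 CPM (0.19 ± 0.05, 14.4%, adjusted p = 0.00495), and PSMC3 from 190.1, 174 and 158 CPM to 204, 217 and 199 CPM (0.25 ± 0.06, 18.8%, adjusted p = 0.00608). PSMC3 had the largest fold change among the tested members, and its LV-NC libraries were spread over a wider range than those of the other ATPases. PSMC4 read 129, 120 and 114 CPM against 136, 140 and 138 CPM (0.19 ± 0.05, 14.1%, adjusted p = 0.0163). The C-terminal tails of PSMC1, PSMC3 and PSMC4 are among those known to dock into the alpha ring and open its gate. The remaining ATPases, PSMC5 and PSMC6, had overlapping groups and log2 fold changes of 0.10 and 0.06 (adjusted p = 0.273 and 0.487). PSMC1, PSMC2 and PSMC3 stayed past the threshold in all 6 fits that left out a library, whereas PSMC4 did not once LV-NC replicate 2 (0.0773) was left out, or MUCP1-FLAG replicate 2 (0.0726) or 3 (0.0733).

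The 3 PSM-named cap base subunits that are no ATPases are large scaffolds or ubiquitin receptors. PSMD1, a scaffold that holds the ubiquitin receptor ADRM1, rose from 193, 203 and 209 CPM to 227, 232 and 229 CPM (0.19 ± 0.05, 13.8%, adjusted p = 0.00778), a call that did not hold without MUCP1-FLAG replicate 3 (0.0504). PSMD2, the other scaffold, had non-overlapping groups, at 736, 703 and 657 CPM against 754, 758 and 749 CPM, but did not pass (0.11 ± 0.05, adjusted p = 0.115). The ubiquitin receptor PSMD4 gave 0.06 ± 0.05 (adjusted p = 0.507), with overlap.

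In the lid, which contains the deubiquitinase PSMD14 and its partner PSMD7, 3 of 8 PSM-named subunits rose. The 8 had a median log2 fold change of 0.12 (range 0.05 to 0.21). PSMD13 stood at 140, 136 and 126 CPM in LV-NC and 158, 155 and 152 CPM in MUCP1-FLAG (0.21 ± 0.05, 15.8%, adjusted p = 0.00644). PSMD3 moved from 149, 144 and 137 CPM to 158, 168 and 163 CPM (0.18 ± 0.05, 13.4%, adjusted p = 0.0149). PSMD11, which clamps the lid to the core, was at 166, 169 and 167 CPM against 184, 190 and 181 CPM (0.14 ± 0.05, 10.5%, adjusted p = 0.0361). In none of these 3 did the groups overlap. PSMD14 also had groups apart and an adjusted p of 0.0625 (0.13 ± 0.05), while PSMD6, PSMD7, PSMD8 and PSMD12 overlapped. PSMD13 passed in all 6 fits that left out a library. PSMD3 did not pass once LV-NC replicate 2 (0.0649) was left out, or MUCP1-FLAG replicate 2 (0.0933) or 3 (0.0699), and PSMD11 passed in 2 of the 6.

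**Figure D2:**
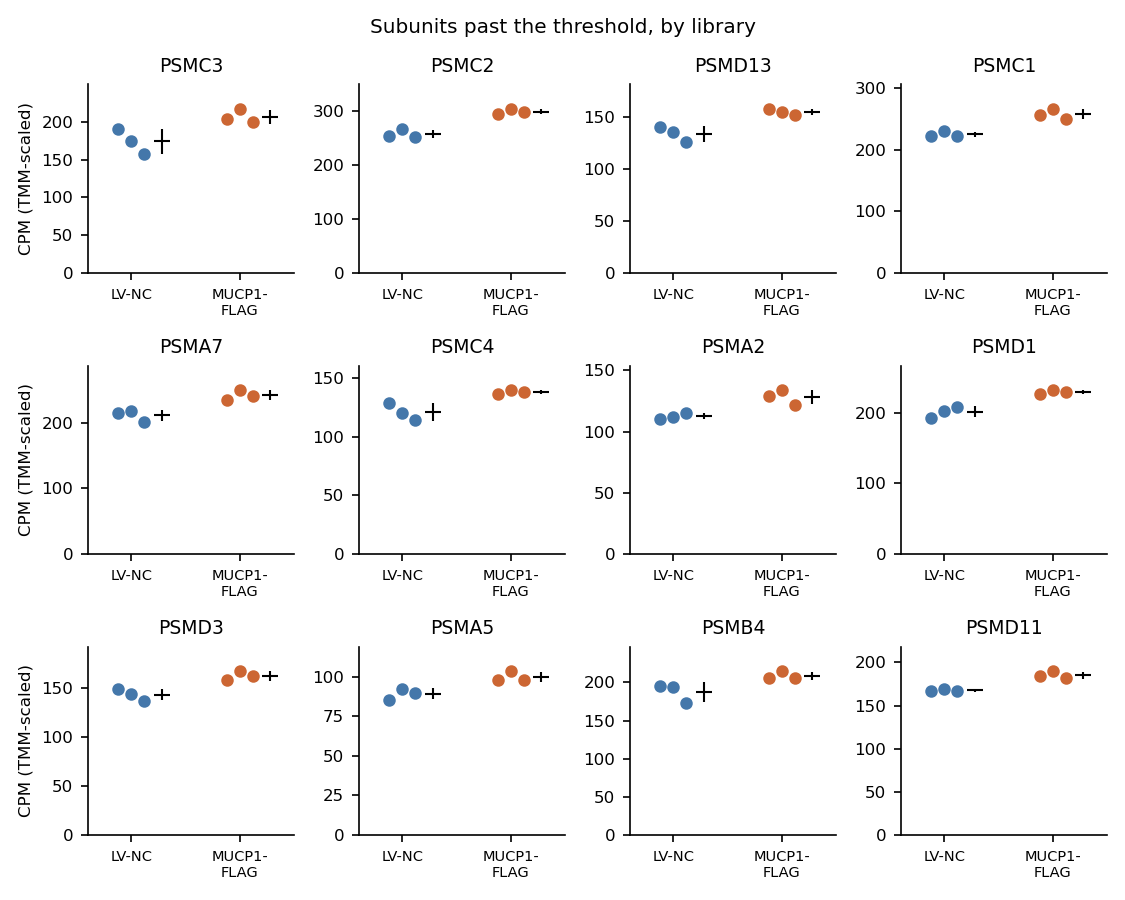
CPM in each library for the 12 genes past the threshold, with LV-NC in blue, MUCP1-FLAG in orange and the group mean ± SD of 3 libraries in black, each axis starting at 0. In each of the 12 panels the MUCP1-FLAG libraries lie above the LV-NC libraries, by 10.5% to 18.8% in the edgeR fit.

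With 1 library left out at a time, the number of members past the threshold and higher ran from 5 (without MUCP1-FLAG replicate 2) to 15 (without LV-NC replicate 3). Leaving out LV-NC replicate 2 gave 6, as did leaving out MUCP1-FLAG replicate 3, and 4 of the 12 genes, PSMC1, PSMC2, PSMC3 and PSMD13, passed in each such fit. With limma on log2(FPKM + 1) it was 3 (PSMA2, PSMA7 and PSMC1). In the authors' deposited table, 10 members had an adjusted p under 0.05, all of them higher and all among the 12, and PSMA5 (0.0716) and PSMB4 (0.0578) were not.

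Neighbouring or near-identical genes could add reads to some of these counts, since it is not given here whether the authors counted reads by strand. In GENCODE 29 on GRCh38, PSMC2 lies at chr7:103344254-103369395, PSMC3 at chr11:47418769-47426473 and PSMD13 at chr11:236546-252984. PSMC1, at chr14:90256495-90275429, shares 4671 exon bases with the opposite-strand gene NRDE2 and has 13 pseudogenes named after it. NRDE2 went from 29.03 to 24.9 CPM (log2 fold change -0.23, adjusted p = 0.0845), opposite in sign to PSMC1. It passed the threshold without MUCP1-FLAG replicate 1 (-0.34, adjusted p = 0.0148). With limma it also passed, on log2(FPKM + 1) (-0.55, adjusted p = 0.0149) and on log2(FPKM + 0.1) (-0.63, adjusted p = 0.0144). PSMD13 overlaps SIRT3 on the other strand by 316 exon bases, and SIRT3 gave 0.04 (adjusted p = 0.835). Over the 50 members, exons of 8 overlapped another gene on the same strand and exons of 21 a gene on the opposite strand, and 12 had a pseudogene named after them. How reads in these overlaps were assigned was not tested.

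None of the 3 immunoproteasome subunits passed the threshold, in edgeR or in DESeq2. PSMB8, the counterpart of PSMB5, measured 49.0, 49.7 and 45.4 CPM in LV-NC and 43.1, 44.8 and 43.3 CPM in MUCP1-FLAG. The groups did not overlap, and MUCP1-FLAG was the lower one, but the difference missed the threshold (log2 fold change -0.13 ± 0.06, edgeR adjusted p = 0.157). Without LV-NC replicate 3 the adjusted p was 0.0496. PSMB9, the counterpart of PSMB6, gave 10.8, 9.32 and 10.4 CPM against 9.74, 11.6 and 10.1 CPM (0.05 ± 0.11, adjusted p = 0.800). PSMB10, the counterpart of PSMB7, gave 17.1, 13.9 and 14.3 CPM against 15.4, 19.9 and 16.6 CPM (0.21 ± 0.11, adjusted p = 0.206). Both of these overlapped between the groups and had standard errors about as wide as the changes seen in the core. PSMB8 and PSMB9 are neighbours within the HLA region, at chr6:32840717-32844703 on the minus strand and chr6:32844136-32859585 on the plus strand, and their exons overlap by 139 bases.

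In SW480 cells the constitutive subunit exceeded its immunoproteasome counterpart in each pair, on the FPKM scale. PSMB8 made up 29.7%, 31.1% and 30.7% of the summed FPKM of PSMB8 and PSMB5 in LV-NC, against 28.8%, 27.4% and 27.8% in MUCP1-FLAG. All 3 MUCP1-FLAG values lay below the LV-NC values, with means of 30.5% ± 0.718 and 27.97% ± 0.700 (SD, n = 3 each). The log2 ratio of PSMB8 to PSMB5 differed by -0.18, and the two-sided exact permutation p was 0.1, which is the smallest that 3 against 3 libraries can give (0.3 after Benjamini-Hochberg adjustment over the 3 ratios). PSMB9 held 7.17% ± 0.962 of its pair in LV-NC and 6.90% ± 0.428 in MUCP1-FLAG (log2 ratio difference -0.05, exact p = 0.8, adjusted 0.8). PSMB10 held 9.92% ± 1.24 and 10.3% ± 0.921 (difference 0.07, exact p = 0.5, adjusted 0.75). The library values of both latter pairs overlapped.

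**Figure D3:**
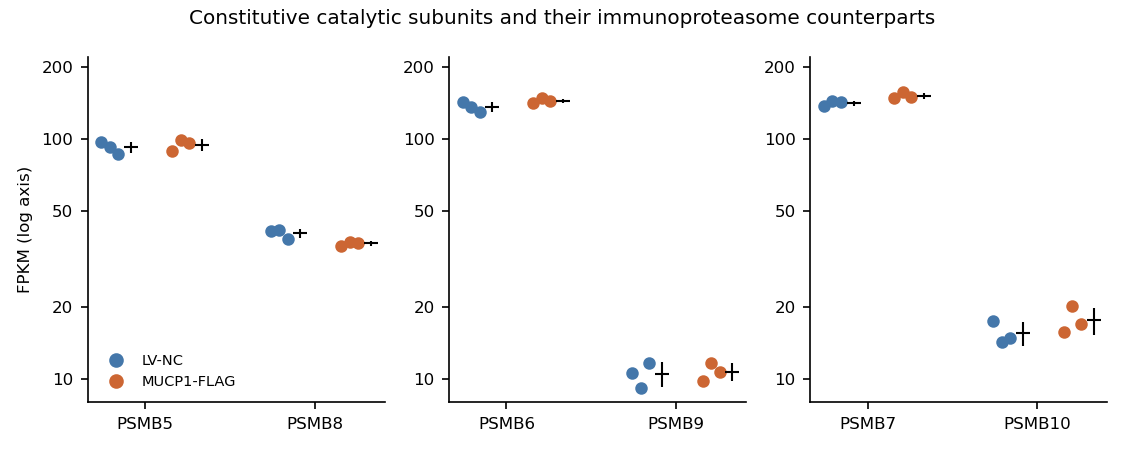
FPKM on a log axis for each constitutive catalytic subunit and its immunoproteasome counterpart, by library, with LV-NC in blue, MUCP1-FLAG in orange and the group mean ± SD of 3 libraries in black. PSMB8 is the one of the 6 genes whose MUCP1-FLAG libraries all lie below LV-NC, and PSMB9 and PSMB10 sit near 7% and 10% of their pairs.

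Activators, which open the core in place of the cap, and the inhibitor PSMF1 showed 0 genes past the threshold in edgeR and 0 with an unadjusted p under 0.05, as well as 0 past it in DESeq2. PSME1, which forms the interferon-induced activator ring with PSME2, gave 62.6, 69.6 and 60.8 CPM against 64.6, 75.1 and 69.3 CPM (0.12 ± 0.07, adjusted p = 0.256). PSME2 gave 0.06 ± 0.06 (adjusted p = 0.495). The nuclear activator PSME3 and PSME4, an activator with a role in chromatin and spermatogenesis, gave 0.03 and -0.05. PSMF1 read 232, 228 and 207 CPM in LV-NC and 214, 219 and 219 CPM in MUCP1-FLAG (-0.03 ± 0.05, adjusted p = 0.712). In all 5 genes the groups overlapped.

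Of the 4 chaperones that assemble the alpha ring, 0 passed the threshold in edgeR or DESeq2 and 0 had an unadjusted p under 0.05 in edgeR. PSMG1 came closest, at 98.5, 102 and 96.5 CPM against 105, 114 and 102 CPM (0.11 ± 0.05, adjusted p = 0.185). Its highest control and lowest MUCP1-FLAG library were 102.1 and 102.2 CPM. PSMG2, PSMG3 and PSMG4 gave 0.06, -0.08 and 0.03, with overlap. The 3 chaperones of the cap base, of which 0 passed in edgeR or DESeq2, bind the ATPases during assembly and had a median log2 fold change of 0.15. PSMD9 stood at 35.8, 33.2 and 33.6 CPM in LV-NC and 37.3, 42.8 and 37.0 CPM in MUCP1-FLAG, without overlap, and did not pass (0.19 ± 0.07, adjusted p = 0.0758). Without LV-NC replicate 1 it did pass in edgeR (adjusted p = 0.0383). PSMD10, also known as gankyrin, had groups apart as well (0.15 ± 0.06, adjusted p = 0.133, and 0.0415 without LV-NC replicate 3). PSMD5 overlapped (0.04 ± 0.05, adjusted p = 0.682).

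Neither gene matched by letters alone passed the threshold. PSMC3IP, a partner of the meiotic recombinases, gave 15.4, 16.1 and 17.5 CPM against 18.1, 17.9 and 18.9 CPM (0.16 ± 0.09, adjusted p = 0.214), without overlap. PSME3IP1, which binds PSME3, gave -0.02 ± 0.06 (adjusted p = 0.857), with overlap.

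Levels per length differed more between subunits than between the groups, although core and cap subunits are built into the particle in fixed numbers. In LV-NC the highest were PSMD2 at 249.1 ± 13.2 FPKM, PSMA7 at 222 ± 7.96, PSMD8 at 218 ± 9.93 and PSMB4 at 205 ± 12.7 (SD, n = 3). The lowest were PSMD11 at 58.3 ± 0.544, PSMA5 at 45.0 ± 2.45 and PSMB2 at 30.1 ± 1.01. PSMA7 and PSMD8 lie within an SD of each other, while the highest and lowest means differ 8.29-fold. PSMB8, at 40.5 FPKM, was above PSMB2, and PSMB10 and PSMB9 were at 15.5 and 10.5 FPKM.

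**Figure D4:**
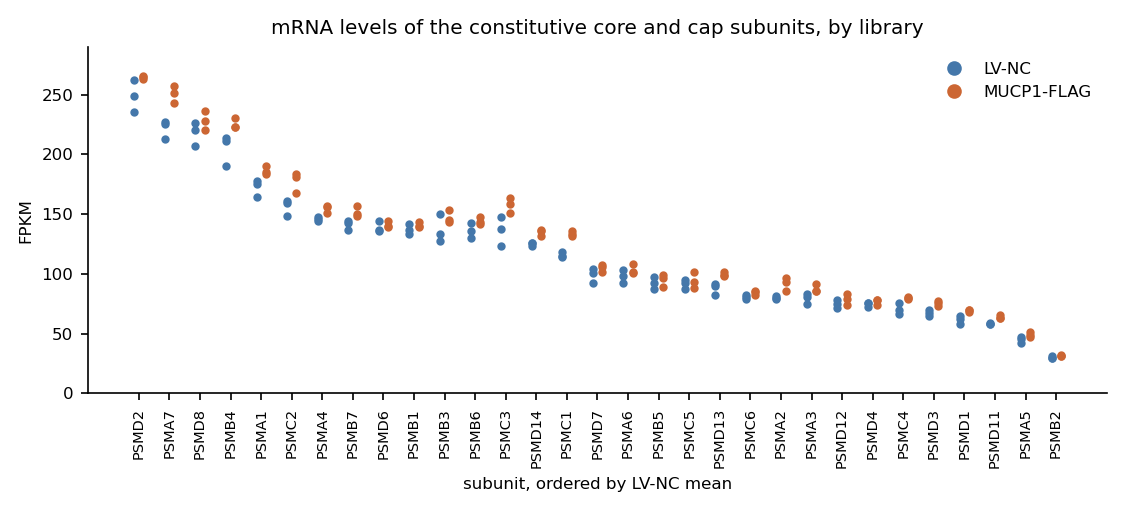
FPKM of the 31 PSM-named constitutive core and cap subunits in each library, ordered by the LV-NC mean, with LV-NC in blue and MUCP1-FLAG in orange. The order runs from PSMD2 at 249.1 FPKM to PSMB2 at 30.1 FPKM, a range far wider than the gap between the groups for any subunit. Both the order and the range depend on the gene length behind the FPKM.

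Genes that act with the proteasome but, except for PSME3IP1 given above, have no PSM name were past the threshold about as often as all genes. These 21 partners include shuttle factors, deubiquitinases, assembly factors and the cap subunits ADRM1 and SEM1. Of the 21, 2 were higher (9.52%, against 8.35% of all tested genes) and 2 lower (9.52%, against 7.71%), with a median log2 fold change of 0.00. POMP, the chaperone that matures the core, rose from 115 ± 2.54 to 134 ± 10.0 CPM (0.22 ± 0.06, adjusted p = 0.00938), a call that did not hold without MUCP1-FLAG replicate 2 (0.111). TXNL1, a thioredoxin of the cap, gave 0.19 ± 0.06 (adjusted p = 0.0305) and passed in 1 of the 6 fits that left out a library. ZFAND5, which binds ubiquitin chains and activates the proteasome, fell from 247 ± 5.44 to 213 ± 1.2 CPM (-0.21 ± 0.04, adjusted p = 0.00181). The protease DDI2 gave -0.23 ± 0.08 (adjusted p = 0.0412) and passed in 2 of those 6 fits.

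Of 13 genes around NFE2L1, a factor that raises transcription of proteasome genes, 1 was higher (7.69%, against 8.35% of all tested genes). Another 4 were lower (30.8%, against 7.71%), and the median was -0.01. NFE2L1 itself was at 311, 310 and 308 CPM in LV-NC and 322, 318 and 319 CPM in MUCP1-FLAG, a small gap without overlap that did not pass (0.05 ± 0.04, adjusted p = 0.509). Of the small MAF partners, MAFF fell from 50.6 ± 3.38 to 38.4 ± 0.741 CPM (-0.40 ± 0.07, adjusted p = 0.000212). MAFK fell by 0.27 ± 0.07 on the log2 scale (adjusted p = 0.0108, and 0.0547 without MUCP1-FLAG replicate 3). MAFG, the most abundant of them, stayed level at 95.1 ± 1.69 and 95.3 ± 3.97 CPM (0.003 ± 0.05, adjusted p = 0.981). NGLY1 and DDI2, which process NFE2L1 before it enters the nucleus, were lower, NGLY1 at -0.18 ± 0.06 (adjusted p = 0.0420, passing in 1 of the 6 fits that left out a library). VCP, the ATPase that extracts NFE2L1 and other ubiquitin-tagged proteins, rose from 567 ± 21.9 to 633 ± 9.20 CPM (0.16 ± 0.04, adjusted p = 0.0166). Its call did not hold once LV-NC replicate 2 (0.0676) was left out, or MUCP1-FLAG replicate 1 (0.0638) or 3 (0.0971). Of the 12 genes of VCP and its cofactors, 3 rose in edgeR (25%, against 8.35% of all tested genes) and 1 in DESeq2. In either test, 0 fell (1 at an unadjusted p under 0.05). Besides VCP, those higher in edgeR were UBE4B (0.21 ± 0.07, adjusted p = 0.0352) and UFD1 (0.18 ± 0.06, adjusted p = 0.0454). They passed in 2 and 1 of the 6 fits that left out a library.

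Among 14 genes for ubiquitin and its first transfer steps, 0 were higher in edgeR, at an adjusted or unadjusted p, or in DESeq2. In edgeR, 3 were lower (21.4%, against 7.71% of all tested genes). Among them were the conjugating enzymes UBE2D1 (-0.27 ± 0.08, adjusted p = 0.0175) and UBE2R2 (-0.18 ± 0.05, adjusted p = 0.0274), which passed in 3 and 2 of the 6 fits that left out a library.

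Of 20 genes of interferon signalling and of the peptide supply that uses the immunoproteasome, 1 was higher (5%, against 8.35% of all tested genes). Another 5 were lower (25.0%, against 7.71%), and the median log2 fold change of the 20 was -0.10. DESeq2 called 0 higher and 5 lower. HLA-B, which presents peptides to T cells, fell from 208, 205 and 183 CPM to 129, 139.9 and 127 CPM (-0.59 ± 0.06, adjusted p = 1.78e-07). HLA-C fell by 0.16 ± 0.05 (adjusted p = 0.0355, passing in 1 of the 6 fits that left out a library), and reads of such similar genes may be shared. NLRC5, the transactivator of HLA class I genes and of PSMB9, fell by 0.42 ± 0.11 (adjusted p = 0.0134). It stayed lower but did not pass without LV-NC replicate 2 (-0.38, adjusted p = 0.0682) or without MUCP1-FLAG replicate 2 (-0.34, adjusted p = 0.0998). With limma on log2(FPKM + 1), NLRC5 did not pass either (-0.15, adjusted p = 0.402). The peptide transporter gene TAP1 gave -0.23 ± 0.07 (adjusted p = 0.0234) and passed in 2 of the 6. IRF2, a repressor of interferon responses, gave 0.35 ± 0.12 (adjusted p = 0.0486) and passed in 3 of the 6. The summed leukocyte markers, given above, were also lower in MUCP1-FLAG, with PTPRC at 0 in each library and 2 of the 3 tested markers past the threshold, and their part in the HLA and TAP1 result was not tested.

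**Figure D5:**
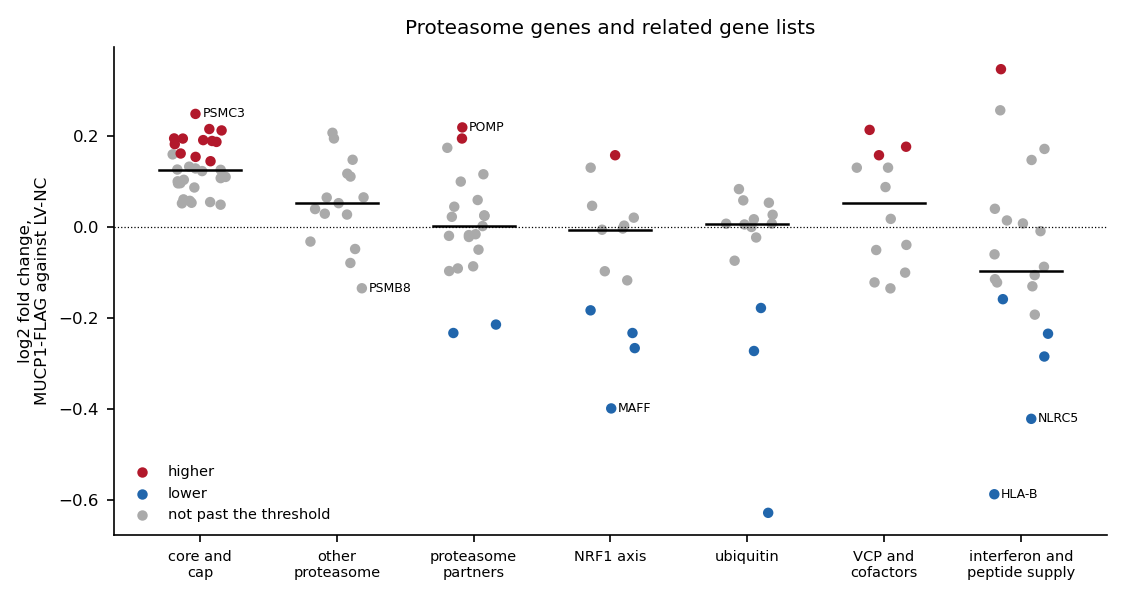
log2 fold change of each tested gene of the core and cap, the other proteasome genes and the 5 related lists (points, with red for higher and blue for lower at an adjusted p under 0.05, and a bar at the median). The core and cap have 12 red and 0 blue points around a median of 0.13, and the other lists have medians between -0.10 and 0.05.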

How the data were processed

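RNA of 6 SW480 libraries, 3 LV-NC and 3 MUCP1-FLAG by their labels, had been sequenced. Per the submitters' processing notes, which name fastp, HISAT2, featureCounts, DESeq2 and GRCh38, the reads were processed with these tools. Their versions and roles and the strand setting are not given in the sources used here. The authors deposited whole-number read counts and FPKM values per gene, per the file headers. The authors' own test is deposited as p-values, raw and adjusted, beside log2 fold changes.

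The deposited counts were tested with edgeR 4.0.16 in R 4.3.3 (quasi-likelihood F test, robust dispersions, TMM, filterByExpr with a minimum count of 10), with Benjamini-Hochberg adjustment over 12920 genes and a threshold of 0.05. The common biological coefficient of variation was 0.0521. The sign ± gives the standard error for log2 fold changes and the SD over 3 libraries for levels. DESeq2 1.42.0, limma 3.58.1 on log2(FPKM + 1) and log2(FPKM + 0.1), other scalings and filters, a replicate block and each library left out were alternatives. The edgeR script was tested on simulated data. Chi-square per degree of freedom between libraries of a group was 2.58 to 8.22, so none counted as a repeat deposit.

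Members and gene lists were chosen with earlier results of these data known. Library values are given for members past the threshold, for PSMB5 to PSMB10 and for the member of each role with the smallest p. From each related list up to 6 members past the threshold are named, of which some are not reported here. NRDE2, SIRT3, NFE2L1, MAFG, values of ADRM1 and SEM1, library values of PSMD2 and values of single epithelial markers were added after their values were seen. PSME3IP1 joined the roles once the table was read. No protein sequence was used here.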

Additional observations from a re-analysis of the deposited data

How the results depend on the processing

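Of 952 recomputed values of 68 of the named genes, 795 kept their direction and side of the threshold. All 31 core and cap genes stayed positive under the 14 alternatives, except PSMD12, which ran from -0.00393 without MUCP1-FLAG replicate 1 to 0.0885 (log2) without MUCP1-FLAG replicate 3. The 12 members higher became 12 with DESeq2's size factors in edgeR, 9 with upper quartile scaling, 10 with DESeq2, 13 without a filter, 11 at a minimum count of 50, and 3 with limma on log2(FPKM + 1) and 3 on log2(FPKM + 0.1). Over all genes, 1079 higher and 996 lower became 514 and 544 with limma on log2(FPKM + 1) and 516 and 549 on log2(FPKM + 0.1). With 1 library left out, members higher ran from 5 to 15 and members lower from 0 to 1 (PSMB8, without LV-NC replicate 3), and all genes higher from 639 to 1323 and lower from 624 to 1213. Signs also turned for PSMB9 (-0.0343 to 0.0986 over these fits, negative without either replicate 2), PSMG4 (-0.0485 to 0.0844, negative without MUCP1-FLAG replicate 2), PSME3IP1 (-0.0456 to 0.0159, positive without LV-NC replicate 2), SIRT3 (-0.0259 to 0.156, negative without LV-NC replicate 3) and PSME3 (-0.01078 in limma with a pseudocount of 1 and -0.01089 with 0.1). None of these passed the threshold. The cause was not tested. With the replicate number as a block, 10 members were higher, 1005 genes higher and 954 lower. Deviations of same-numbered libraries correlated at 0.0351, 0.0498 and 0.00239, and LV-NC replicate 3 correlated more with MUCP1-FLAG replicate 2 (0.00451), so the numbers were not taken as pairing. Upper quartile scaling lowered the median of all genes from -0.004 to -0.02 and the higher share of calls from 52.0% to 45.1%. Depth limits PSMB9, PSMB10 and PSMG4, whose standard errors reached 0.09 to 0.11.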

Other observations

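For PSMD5, a chaperone of the cap base, deposited counts and FPKM did not move together. It had 71.5, 69.7 and 72.8 CPM in LV-NC and 73.9, 74.2 and 71.7 CPM in MUCP1-FLAG. Its deposited FPKM were 22.1, 32.7 and 23.3 in LV-NC, against 23.6, 22.3 and 43.4 in MUCP1-FLAG, so LV-NC replicate 2 and MUCP1-FLAG replicate 3 stood out in FPKM alone. The gene length implied by its counts and FPKM varied by 25.2% (coefficient of variation over the 6 libraries), where the median of the 48 tested members was 0.823% and the next, PSMB9, had 4.80%.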
